A study of Mus musculus with 9 samples.

Results

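Cytosolic ribosomal proteins are the protein part of the ribosomes that translate nuclear-encoded mRNA. The genes described here were chosen by symbol. A symbol had to be Rpl or Rps and a number, followed by at most 1 letter (a, x, l, y, s or t) and 1 digit. The acidic stalk genes Rplp0, Rplp1 and Rplp2 and the laminin-receptor-like Rpsa were added, and named pseudogenes were left out. Of 89 annotated mouse genes that match, 83 had at least 1 row in the 9 libraries, out of 17130 genes with a value. They comprise 43 genes of the large subunit, 32 of the small subunit, 3 of the stalk and 5 paralogs of other members, and 2 of the 83 (Rpl6l and Rps3a2) are annotated as processed pseudogenes. Rpl10l, Rpl13, Rpl32l, Rps12l1, Rps3a3 and Rps4l had no row and are not analysed here.

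The tissue was the initial segment, where the duct of the epididymis begins, taken from C57BL/6 mice aged 4 weeks, and its RNA was poly(A)-selected. Wild-type mice (WT) were set against mice lacking both Mst1 and Mst2 (dKO) and against mice lacking Yap as well (tKO), with 3 libraries in each group. Mst1 (gene Stk4) and Mst2 (Stk3) are the Hippo pathway kinases that hold back the growth-promoting coactivator Yap (Yap1). The agent or promoter that drives the deletions is not given in the sources used here, and no source ties a library to its own animal, so p-values measure the spread between these samples. Values are FPKM, summed over the first exons of a gene or over its last exons, whichever was larger. They are lower bounds where transcripts were not assembled, and the depth behind them is unknown.

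The libraries carried the marks of their labels. Transcripts without a pair of Stk4 exons made up 0% in each WT library, 59.4% to 68.6% in dKO and 24.5% to 58.7% in tKO, and for Stk3 0%, 48.5% to 60.9% and 36.8% to 42.2%. Yap1 had 25.1 ± 1.84 FPKM for WT, 26.5 ± 1.35 for dKO and 8.62 ± 0.267 for tKO (SD, n = 3). The loss was incomplete in this tissue: part of the Stk4 and Stk3 transcripts kept the exon pair in every knockout library, and Yap1 RNA remained in tKO. The 5 principal cell markers of the epididymis (Aqp9, Lcn8, Gpx5, Rnase10 and Adam7) summed to 25653 to 26778 FPKM in the WT libraries, 17269 to 19281 in dKO libraries and 17517 to 21043 in tKO libraries, so that WT overlapped neither knockout. Gpx5, with a mean of 16957 FPKM in WT, made up most of the WT sum. Of the 5 markers Lcn8 and Rnase10 were called lower in dKO versus WT by limma (adjusted p 0.000511 and 0.00166). In tKO versus WT 1 of the 5 had a positive log2 difference. This was Aqp9, with 15.4 FPKM in tKO against 7.90 in WT (log2 difference 0.86, limma adjusted p 0.248). Across genes, which are not independent replicates, Pearson's r was 0.940 to 0.959 within groups and 0.907 to 0.951 between groups. The 6 cycling cell markers summed to 27.5 to 34.5 FPKM for WT, 55.1 to 74.0 for dKO and 46.7 to 63.3 for tKO. Their part in any result here was not tested.

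Each ribosome carries a single copy of nearly every ribosomal protein, so these genes are expressed together at high levels in growing and secreting tissues. Their mRNAs usually start with a run of pyrimidines, the terminal oligopyrimidine tract, through which mTOR signalling and Larp1 adjust their translation. Their introns often host small nucleolar RNAs that guide the modification of ribosomal RNA. The host role was visible in the files: 16 of the 83 members were listed under the ID of another gene, 12 of them under a small nucleolar RNA, 2 under a miRNA and 2 under a protein-coding neighbour (Rpl13a under Flt3l, Rpl24 under Zbtb11). These were assigned by position.

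The sequences around the starts of 8 members are shown. Rplp0 and Rps13 were called in a tKO comparison, and Rps2 and Rpl36a differed by as much as Rplp0 in tKO versus WT without passing the test. Rps27, Rpl35, Rpl11 and Rps7 hold the motif CTTTCC or, on either strand, CCGGAA. Rpl36a holds the motif TATAAA, which lies after its start and not before it. Each run has 45 bases before and 15 from the RefSeq start on GRCm38.p6, 5′ to 3′ on the strand of the gene, in lower case with motif matches in capitals.
Rplp0, chr5:115559422-115559481, plus strand: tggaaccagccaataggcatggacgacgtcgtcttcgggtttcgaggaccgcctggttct
Rps13, chr7:116334176-116334235, minus strand: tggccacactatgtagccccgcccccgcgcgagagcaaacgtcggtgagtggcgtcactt
Rps2, chr17:24720018-24720077, plus strand: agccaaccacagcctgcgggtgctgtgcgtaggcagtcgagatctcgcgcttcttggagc
Rpl36a, chrX:134585609-134585668, plus strand: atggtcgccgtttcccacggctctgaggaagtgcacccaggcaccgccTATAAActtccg
Rps27, chr3:90213634-90213693, minus strand: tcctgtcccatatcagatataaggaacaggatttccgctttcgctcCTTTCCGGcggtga
Rpl35, chr2:39005117-39005176, minus strand: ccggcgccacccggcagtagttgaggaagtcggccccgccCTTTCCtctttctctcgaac
Rpl11, chr4:136053379-136053438, minus strand: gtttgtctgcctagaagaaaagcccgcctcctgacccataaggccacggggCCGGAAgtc
Rps7, chr12:28635939-28635998, minus strand: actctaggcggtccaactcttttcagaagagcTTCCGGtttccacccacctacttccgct

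The RefSeq promoter table matched 61 members. From 50 bases before to 50 bases after the start, the pyrimidine motif CTTTCC on the gene strand was present in 19 of 61 members (31.1%), against 5.43% of 27025 genes in the table, and on either strand in 34.4% against 10.3%. The motif CCGGAA, the core bound by ETS family factors, was present on either strand in 22 of 61 (36.1%), against 9.24% of all genes. It overlaps the pyrimidine motif where CTTTCC runs into TTCCGG, as at the Rps27 start. The TATA motif TATAAA on the gene strand was present in 5 of 61 (8.20%), against 4.05%, and on either strand in 8.20% against 5.77%. A match is a description of these letters and not a bound site. The leading first exon in the files started exactly at a RefSeq start in 12 of the 61 members, within 10 bases in 23 and within 100 bases in 53.

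**Figure D1:**
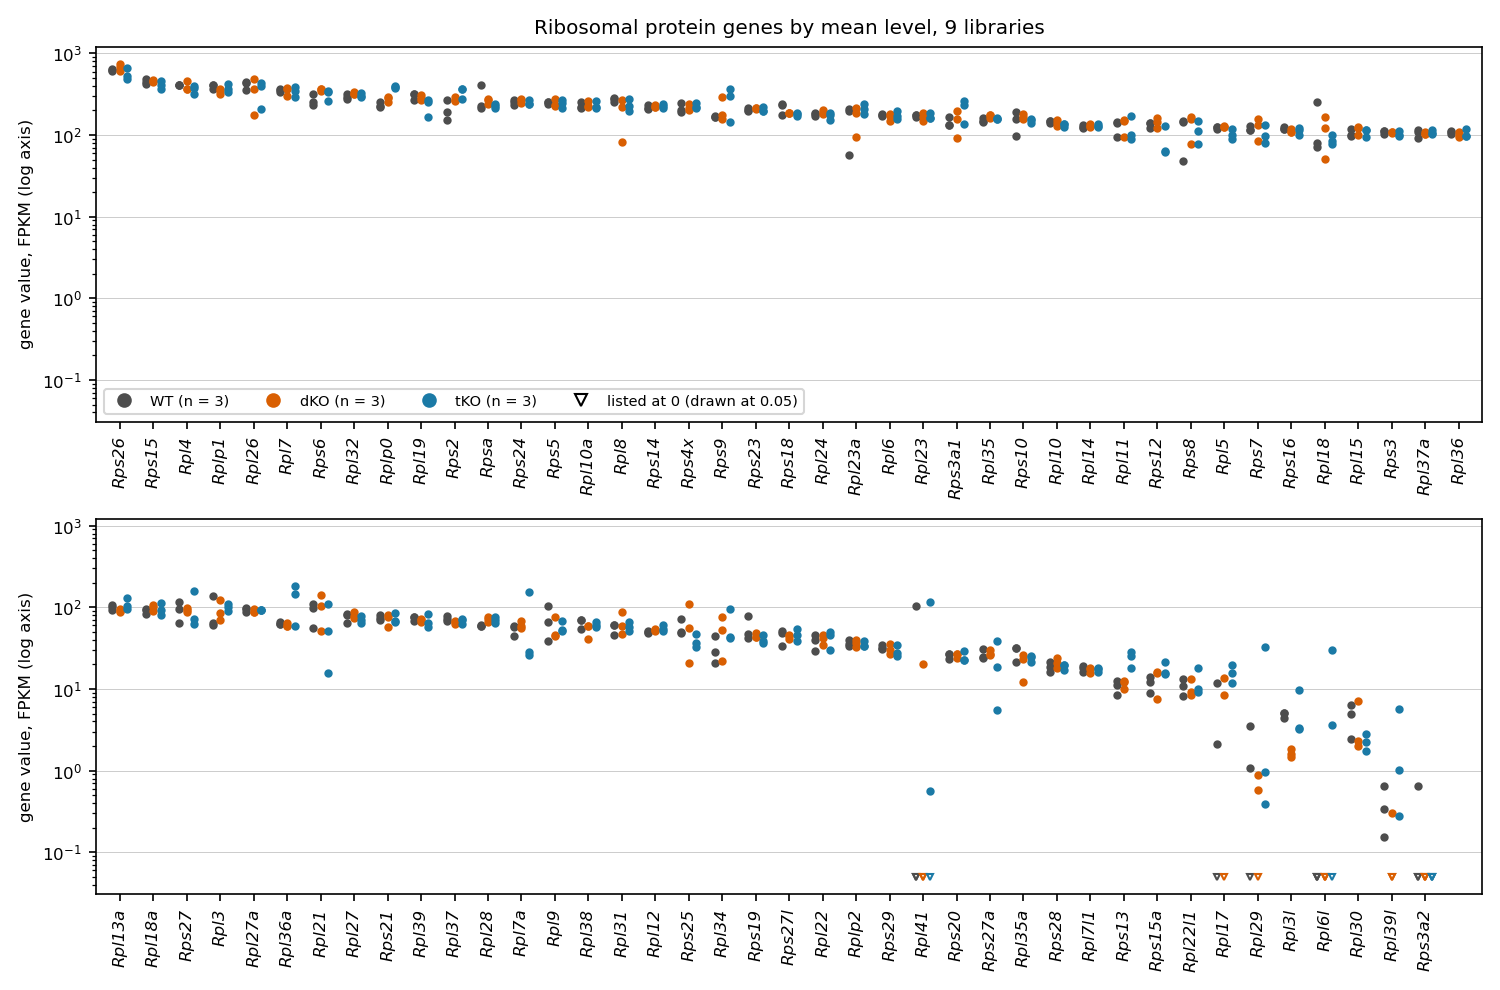
Gene value in FPKM on a log axis for 81 of the 83 members, ordered by mean, with 1 point per library and a colour per group. Of all 83 members 52 had a mean between 50 and 300 FPKM, while those at the right of the lower panel are low or listed at 0 in some libraries.

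Ribosomal protein genes were among the more abundant transcripts. The median member had a mean of 105 FPKM over the 9 libraries, against 7.15 FPKM for all tested genes, and 73.5% of members but 4.17% of all genes reached 50 FPKM. The highest was Rps26, with a mean of 618 FPKM over values of 601, 618 and 637 (WT), 606, 741 and 690 (dKO) and 659, 488 and 525 (tKO). Rps15 (440 FPKM), Rpl4 (393), Rplp1 (372) and Rpl26 (367) followed. Rps26 stood above the rest, since its lowest library exceeded the highest of Rps15 (483 FPKM). The neighbours after it overlapped, with Rps15 at 368 to 483 FPKM, Rpl4 at 320 to 462, Rplp1 at 316 to 427 and Rpl26 at 176 to 481. Rpl26 was low in dKO replicate 3 (176 FPKM) and tKO replicate 3 (211 FPKM) and at least 359 FPKM in the others. Small subunit members had a median of 138 FPKM and large subunit members 94.4 FPKM.

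The share of the transcriptome taken up by the members overlapped between the groups. Their summed FPKM was 4.13%, 4.21% and 4.35% of all gene values in the WT libraries, 4.21%, 4.63% and 4.30% in dKO and 4.64%, 4.17% and 4.84% in tKO. The means were 4.23% ± 0.112 for WT, 4.38% ± 0.221 for dKO and 4.55% ± 0.343 for tKO (SD, n = 3), and every pair of groups overlapped. With last exons used for every gene the shares were 3.998% to 4.21% for WT and 4.22% to 4.35% for dKO, which did not overlap, and 4.10% to 4.80% for tKO, which overlapped both. The principal cell markers, whose sum but not every gene was lower in both knockouts, are part of the total that the share is taken of. Their part in it was not tested. The summed large subunit genes had 5334 ± 155 FPKM for WT, 5193 ± 436 for dKO and 5208 ± 343 for tKO. The summed small subunit genes had 4964 ± 130, 5296 ± 385 and 5101 ± 435 FPKM. Replicates 2 and 3 of tKO lay at opposite ends: of the 80 tested members, 18 had their lowest value in tKO replicate 2 and 26 their highest in tKO replicate 3.

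The steadiest members held nearly the same value in all libraries. Rpl14 ran from 123 to 136 FPKM and Rpl27a from 86.6 to 98.5 FPKM. The mean of Rpl14 was 127 ± 5.73 FPKM for WT, 130 ± 5.53 for dKO and 130 ± 5.35 for tKO. For tKO versus WT the 95% interval of its log2 difference ran from -0.16 to 0.22. The median SD within groups was 0.18 on the log2 scale for the 80 tested members and 0.22 for all 12090 tested genes. Among those with a mean of at least 50 FPKM it was 0.16 for 61 members and 0.17 for 714 genes. The upper end went the other way, with a 90th percentile of 0.72 for the tested members and 0.49 for all tested genes.

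The comparison of dKO with WT asks whether loss of the kinases changed ribosomal protein mRNAs. No member was called changed by limma at a Benjamini-Hochberg adjusted p under 0.05, while 3.8% of all tested genes were called (1.46% higher and 2.34% lower). At an unadjusted p under 0.05 there were 5 of 80 members, against 18.5% of tested genes. The median log2 difference of the tested members was 0.02, against 0.03 for all tested genes, and 85.0% of the members but 67.8% of all tested genes lay within 0.3 of 0. Medians were -0.01 for the large and 0.04 for the small subunit. The 95% interval of 62 of the 80 members lay within 1 on the log2 scale, and that of the other 18 was wider or further from 0.

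The groups did not overlap for 6 of the 80 members in dKO versus WT (7.5%, background 27.5%). These were Rplp0, Rpl28, Rpl35 and Rps6, higher in dKO (background 15.3%), and Rpl37 and Rpl3l, lower (background 12.2%). Rps6 encodes the small subunit protein phosphorylated by S6 kinase below mTOR. It had 254, 230 and 319 FPKM for WT, 344, 368 and 364 for dKO and 345, 333 and 259 for tKO. The dKO libraries lay above all WT libraries and the tKO libraries overlapped both groups. The log2 difference of Rps6 in dKO versus WT was 0.43 ± 0.15 (SE), with a limma adjusted p of 0.171.

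Rpl3l, the striated muscle counterpart of Rpl3, had the most negative log2 difference of the 80 tested members in dKO versus WT. It had 4.37, 5.03 and 5.03 FPKM for WT, 1.62, 1.86 and 1.47 for dKO and 3.28, 9.80 and 3.23 for tKO. Every dKO library lay below every WT and tKO library. The log2 difference was -1.13 ± 0.32 (SE) in dKO versus WT (limma adjusted p 0.0991) and 1.13 ± 0.32 in tKO versus dKO (0.119). Its leading first exon changed among the libraries and its value comes from the last exon. It was called in dKO versus WT without tKO replicate 2. The 5 smooth muscle markers, none at 0 throughout, summed to 761 to 1173 FPKM for WT, 578 to 736 for dKO and 661 to 1013 for tKO, and their part in this pattern was not tested. Among them Actg2 fell from 482 ± 193 to 132 ± 8.17 FPKM in dKO versus WT (limma adjusted p 0.0186), while Acta2 (0.08) and Tagln (0.10) had log2 differences above 0, and the median of the 5 was 0.00198.

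The comparisons of tKO ask what differs once Yap is also lost. They share the tKO libraries, and Rplp0 was the only member called in each of them. Rplp0 (ENSMUSG00000067274, GRCm38 chromosome 5, 115559467 to 115563727) encodes the protein at the base of the ribosomal stalk, which recruits the elongation factors, and is often used as a reference gene in quantitative PCR. It had 227, 254 and 219 FPKM for WT, 256, 282 and 292 for dKO and 402, 380 and 390 for tKO. All tKO libraries lay above all others, and the dKO libraries lay above the WT libraries by a smaller step.

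Rplp0 rose 1.67-fold by the ratio of means in tKO versus WT, a log2 difference of 0.74 ± 0.10 (SE, limma adjusted p 0.0295). In tKO versus dKO it rose by 0.50 ± 0.10 (0.0426). In dKO versus WT the difference was 0.24 ± 0.10 and was not called (0.237). The main first exon of Rplp0, 73 bases long and beginning at the RefSeq start shown above, carried the difference, with 212 to 251 FPKM for WT, 255 to 290 for dKO and 379 to 402 for tKO. Its last exon had 212 to 251, 246 to 272 and 345 to 394 FPKM. Both Rplp0 calls ended with median-of-ratios scaling (adjusted p 0.0512 against WT and 0.0616 against dKO), with only the 2 groups compared (0.0942 and 0.0841) and with a replicate block (0.139 and 0.0999). The call against dKO also ended with no filter (0.0717) and with no trend (0.0556). Among fits without 1 library, the tKO versus WT call held only without tKO replicate 1, with an adjusted p of up to 0.133 without another of the libraries, and the tKO versus dKO call held in 0 of 9 (up to 0.129).

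The other stalk genes, Rplp1 and Rplp2, did not pass the test in any comparison. Rplp1 had 395 ± 27.9 FPKM for WT, 344 ± 26.4 for dKO and 378 ± 46.3 for tKO. The summed stalk genes were 665 ± 45.5 FPKM for WT, 657 ± 38.0 for dKO and 804 ± 53.7 for tKO, a sum that contains Rplp0.

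**Figure D2:**
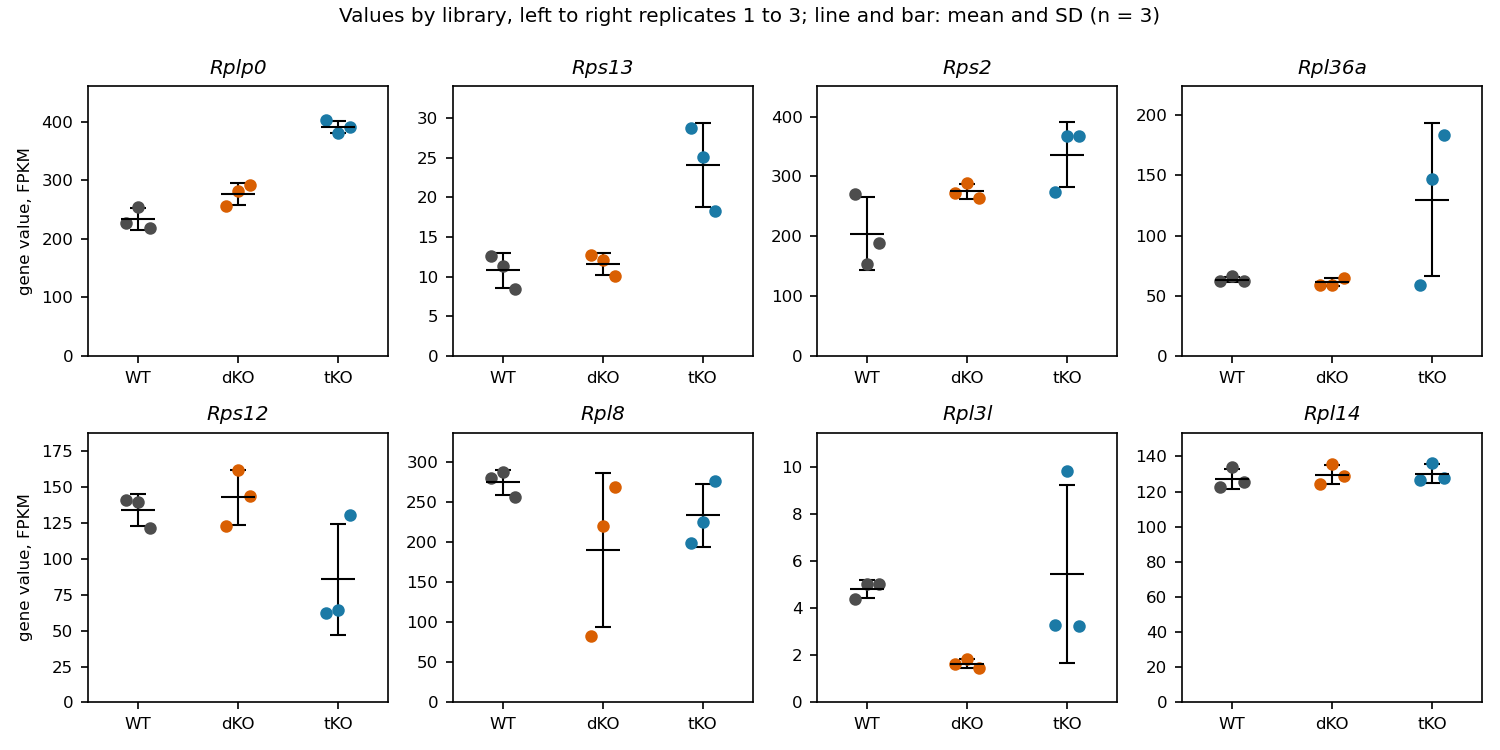
Gene values in FPKM of 8 members, 1 point per library with replicates 1 to 3 from left to right, and the mean with SD (n = 3). Rplp0 and Rps13 separate tKO from the other groups, Rpl36a is high in tKO replicates 2 and 3 and Rpl14 is level.

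Rps13 (ENSMUSG00000090862, chromosome 7, 116331505 to 116334195) encodes a protein of the small subunit body. It had 12.7, 11.3 and 8.41 FPKM for WT, 12.7, 12.1 and 10.1 for dKO and 28.7, 25.1 and 18.3 for tKO. All tKO libraries lay above all others, while WT and dKO overlapped. Its log2 level rose by 0.97 ± 0.19 in tKO versus dKO (SE, limma adjusted p 0.0398). In tKO versus WT the difference was 1.08 ± 0.19 and missed the threshold (0.0740).

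The last exon of Rps13 also differed between the groups. In WT its last exon was the 970-base form at 116331510 to 116332479, and the 79-base form at 116331505 to 116331583 had no row. In tKO the short form had 28.6, 25.01 and 18.2 FPKM and the long form 0.0335 to 0.0759 FPKM. dKO replicate 1 had 7.22 FPKM of the short and 5.42 of the long form, and dKO replicates 2 and 3 the long form only. In dKO replicate 1, which had both forms, the value was like that of WT replicate 1, which had the long form. FPKM divides by the length of the transcript, so the same number of reads gives a lower value on the longer form. The part of the last-exon form in the level of Rps13 was not tested. By its main first exon alone Rps13 had 12.7, 11.3 and 8.41 FPKM for WT, 10.02, 12.1 and 10.1 for dKO and 21.7, 24.6 and 12.3 for tKO. By this measure tKO replicate 3 lay within the WT range. With first exons used for every gene its log2 difference in tKO versus dKO was 0.76 and was not called (limma adjusted p 0.170). The call also ended without WT replicate 2, without any dKO replicate and without tKO replicate 1 or 2, with an adjusted p of up to 0.121. It ended as well with no filter (0.0633), median-of-ratios scaling (0.0509), no trend (0.0519) and only the 2 groups compared (0.0602), so that 10 of 21 alternatives called it. With a replicate block Rps13 was called in tKO versus WT too (adjusted p 0.0413).

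**Figure D3:**
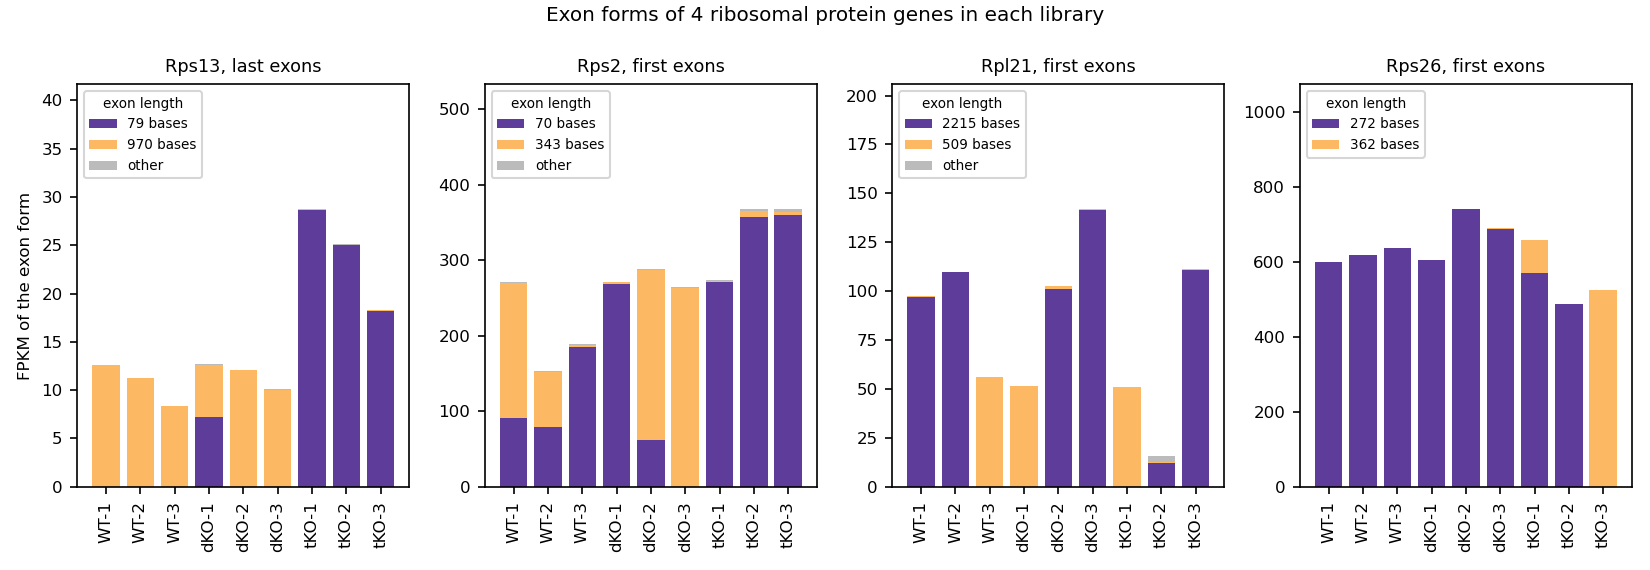
FPKM of the exon forms of Rps13 (last exons), Rps2, Rpl21 and Rps26 (first exons) in each library, stacked, with the exon length in bases in the legend. Rps13 is on the short form in tKO, and the leading first exon of the other 3 genes differs between libraries of the same group.

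Over the tested members as a whole, the tKO comparisons were centred near 0. In tKO versus WT 1 of 80 members was called, higher, where 0.165% of all tested genes were called (0.0827% higher and 0.0827% lower). At an unadjusted p under 0.05 there were 9 of 80 members, against 13.2% of tested genes. In tKO versus dKO 2 of 80 were called, both higher, where 2.14% of tested genes were called (1.26% higher and 0.885% lower), and 6 of 80 had an unadjusted p under 0.05, against 16.7%. The median log2 difference of the members was -0.02 in tKO versus WT and -0.03 in tKO versus dKO, against 0.04 and 0.02 for all tested genes. The groups did not overlap for 10 of the 80 members in tKO versus WT (12.5%, background 18.7%). Of these, 6 were higher in tKO (among them Rpl28, Rplp0, Rps13, Rps15a and Rps2, background 11.1%) and 4 lower (Rpl10, Rpl19, Rpl4 and Rps25, background 7.68%). In tKO versus dKO there were also 10 (background 22.1%), 4 higher (Rpl13a, Rpl3l, Rplp0 and Rps13, background 12.1%) and 6 lower (among them Rpl19, Rpl35, Rpl5, Rps10 and Rpsa, background 10%). In tissue of mixed cells, fewer cells of a type and less RNA per cell cannot be told apart.

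**Figure D4:**
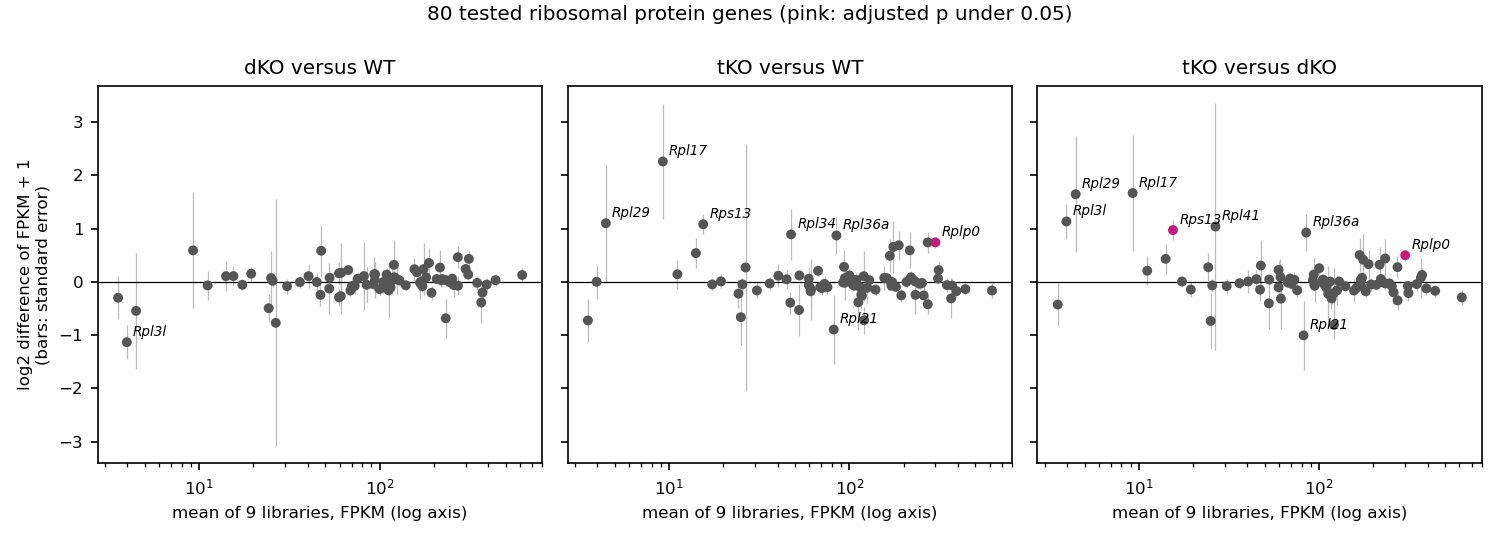
Log2 difference of FPKM + 1 with its standard error against the mean level (log axis) for the 80 tested members in each comparison. Called members are pink: 0 in dKO versus WT, Rplp0 in tKO versus WT, and Rplp0 and Rps13 in tKO versus dKO.

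Other members differed by as much as Rplp0 without passing the test. Rps2, a small subunit protein near the mRNA entry channel, had 271, 153 and 189 FPKM for WT, 272, 289 and 264 for dKO and 274, 367 and 368 for tKO. All tKO libraries lay above all WT libraries, and the log2 difference was 0.74 ± 0.20 (SE, limma adjusted p 0.192). Rpl36a had 62.2, 66.3 and 62.0 FPKM for WT, 59.3, 59.1 and 65.0 for dKO and 59.3, 147 and 183 for tKO. Only tKO replicates 2 and 3 were high, and the log2 difference was 0.87 ± 0.34 in tKO versus WT (limma adjusted p 0.338). Without tKO replicate 1, Rpl36a was called in the tKO versus WT and tKO versus dKO comparisons.

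Rps12, a small subunit protein, went the other way. It had 141, 139 and 121 FPKM for WT, 123, 162 and 144 for dKO and 62.4, 64.3 and 130 for tKO. Replicates 1 and 2 of tKO were low and replicate 3 lay within the WT range. The log2 difference in tKO versus WT was -0.72 ± 0.26 (SE, limma adjusted p 0.305), and without tKO replicate 3 Rps12 was called lower in both tKO comparisons (-1.06 against WT, adjusted p 0.0366, and -1.15 against dKO, 0.0132). A 69-base last exon of Rps12 was listed above 0 only in tKO replicates 1 and 2, the libraries where its value was low. Rpl8, at the large subunit's catalytic core, had 83.3 FPKM in dKO replicate 1 and 199 to 287 FPKM in the other 8 libraries, a log2 difference of -0.68 ± 0.37 in dKO versus WT (limma adjusted p 0.370).

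Rpl21, a large subunit protein, had the most negative log2 difference in both tKO comparisons. Its values were 97.6, 110 and 55.9 FPKM (WT), 51.7, 103 and 142 (dKO) and 50.8, 15.6 and 111 (tKO). The groups overlapped and tKO replicate 2 was the lowest library. The difference was -0.90 ± 0.64 against WT (SE, limma adjusted p 0.597) and -1.01 ± 0.64 against dKO (0.485).

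Rps27a, made as a fusion with ubiquitin, had 23.9, 24.6 and 30.8 FPKM (WT), 26.7, 30.3 and 26.1 (dKO) and 38.6, 18.6 and 5.58 (tKO). The tKO libraries held both the highest and the lowest value, and the log2 difference against WT was -0.66 ± 0.52 (limma adjusted p 0.629). Rpl34, of the large subunit, had 28.5, 20.8 and 44.3 FPKM (WT), 22.3, 76.9 and 53.2 (dKO) and 95.6, 43.8 and 42.1 (tKO). Its groups overlapped, with a log2 difference of 0.89 ± 0.48 in tKO versus WT (limma adjusted p 0.460).

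Several large differences rested on members with few or missing values. Rpl17, a large subunit protein at the exit tunnel, had 11.8, 2.12 and 0 FPKM for WT, 8.33, 0 and 13.7 for dKO and 11.8, 15.6 and 19.8 for tKO. The log2 difference in tKO versus WT was 2.26 with a standard error of 1.09 (limma adjusted p 0.407). Rpl29 was listed at 0 in WT replicate 3 and dKO replicate 2, as Rpl17 was, had 32.8 FPKM in tKO replicate 1 and at most 3.49 FPKM elsewhere. Rpl41, which encodes the smallest ribosomal protein, was at 0 in 5 libraries and had 103 FPKM in WT replicate 3, 19.96 in dKO replicate 3, and 116 and 0.558 in tKO replicates 1 and 2. Rpl39l, a paralog best known from the testis, was at 0 in dKO replicates 1 and 2, had 5.75 FPKM in tKO replicate 2 and at most 1.004 in the others. Of 5 germ cell markers 3 were at 0 in every library and the sum was at most 0.682 FPKM for WT, 0.688 for dKO and 8.57 for tKO, and their part in the Rpl39l value was not tested.

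The pseudogene Rpl6l had 3.598 FPKM in tKO replicate 1 and 30.2 FPKM in tKO replicate 3 and was listed at 0 in the other 7 libraries. Rps3a2 had 0.649 FPKM in WT replicate 1 and was at 0 elsewhere. In all, 77 members were above 0 in all 9 libraries and 6 were listed at 0 in at least 1. Of the lowest members that were always listed, Rpl30 had 6.34, 4.9998 and 2.41 FPKM (WT), 2.32, 1.98 and 7.16 (dKO) and 2.77, 2.23 and 1.73 (tKO), with overlapping groups. A gene listed at 0 in a library can be a transcript that was not assembled there, and reads shared with the many processed copies of these genes could not be separated.

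Which exon led a gene varied between libraries. Forms that share their splice site were counted as 1 exon here, so a shift of the transcript start or end alone is not seen. For 62 of the 83 members the same first exon and the same last exon, counted so, led in every library that listed them. Only 1 first-exon form was found for 27 of the 83 members, so their leading first exon could not change. For 21 the leading first exon (17 members) or last exon (4 members) changed. Rps26, the highest member, was on a 272-base first exon in 7 libraries, on a 362-base first exon in tKO replicate 3 with 525 FPKM, and on both in tKO replicate 1. The first exon of Rpl21 was the 2215-base form in WT replicates 1 and 2, dKO replicates 2 and 3 and tKO replicates 2 and 3, and the 509-base form in the other 3 libraries. The value of Rpl21 was 50.8 to 55.9 FPKM in the libraries on the 509-base form and 15.6 to 142 FPKM in those on the longer one.

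Members whose leading exon changed also varied more. The constant set includes members with a single first-exon and a single last-exon form, for which no change could be seen. Among members above 0 in all libraries, the highest value was 1.38 times the lowest in the median of 59 members with constant leading exons, and 3.77 times in the median of 18 members whose leading exon changed. A ratio of at least 2 was found in 12 of the 59 and in 15 of the 18. The median SD within groups was 0.15 on the log2 scale for 60 tested members with constant exons and 0.54 for 20 with changing ones. Rplp0 belongs to the first set and Rps13 and Rps2 to the second. The sum of first-exon FPKM and the sum of last-exon FPKM agreed within 10% for 54 of the 83 members.

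**Figure D5:**
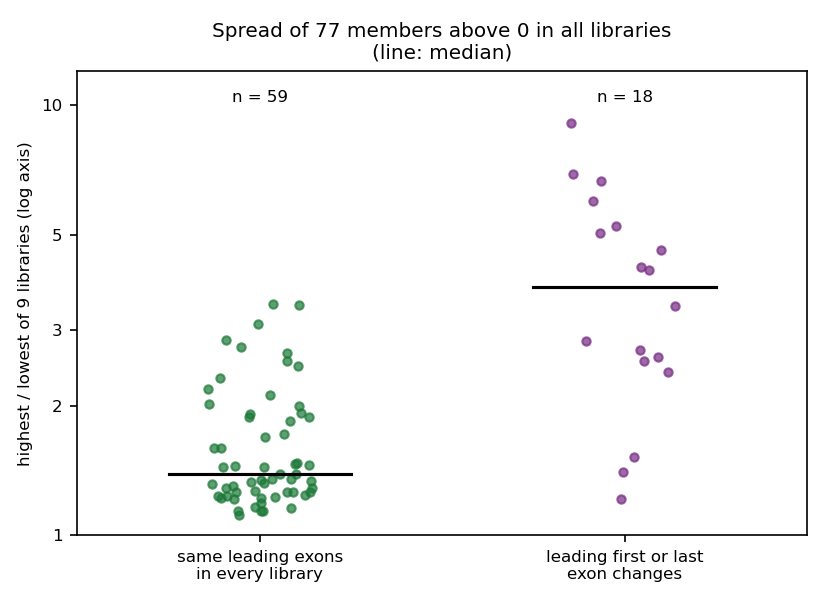
Highest over lowest gene value of the 9 libraries (log axis) for the 77 members above 0 in all of them, by whether the same first and last exons led in every library. Forms that share their splice site count as the same exon, and members with a single first and last form count as constant. The median is 1.38 for the 59 constant members and 3.77 for the 18 others.

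Retained introns and skipped exons gave a further readout of these short genes. Events were kept where both forms were listed in at least 6 libraries. A form not listed in a library counted as 0, so a share of 0% or 100% can reflect a missing row. Of the 27 events kept, the groups did not overlap for 6 in dKO versus WT (5 higher and 1 lower). There were 4 in tKO versus WT (2 higher and 2 lower) and 2 in tKO versus dKO (both lower). The share over all events of the series was not computed, so these counts cannot be set against a background. Some of the 27 events overlap in position within a gene, as in Rpl3 and Rpl10a, and are not separate. Some counted shares are near 0: the Rpl13a event counted as lower in both tKO comparisons ran from 0.00013% to 0.000194%. In Rpl27a a 271-base intron was kept in 13.7%, 14.4% and 0.423% (WT), 24.1%, 16.2% and 17.7% (dKO) and 19.8%, 35.7% and 20.7% (tKO). Both knockouts lay above every WT library. In Rps16 the form that keeps a 91-base intron made up 13.5%, 9.40% and 12.5% for WT, 17.3%, 15.6% and 17.2% for dKO and 13.3%, 17.4% and 14.4% for tKO. The dKO libraries lay above the WT libraries, and tKO overlapped dKO and WT. In Rps3 a 217-base intron was kept in 4.69%, 3.03% and 4.68% for WT, 3.69%, 3.83% and 2.495% for dKO and 2.93%, 1.80% and 2.94% for tKO. The tKO libraries lay below the WT libraries, and dKO overlapped both. In Rpl10a a 328-base intron was kept in 9.08% to 13.1% over the 9 libraries, with overlapping groups. In Rps18 a 92-base intron was kept in 60.04% in dKO replicate 3 and in at most 2.03% in the others. These shares are descriptions without a test.

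The other 3 paralogs, with values in all libraries, overlapped between the groups. Rps27l, a p53 target related to Rps27, had 44.7 ± 9.81 FPKM for WT, 44.0 ± 2.88 for dKO and 45.9 ± 7.30 for tKO (SD, n = 3). Rpl22l1 had 10.8 ± 2.56, 10.3 ± 2.59 and 12.3 ± 4.85 FPKM, and Rpl7l1, a ribosome assembly factor, 17.8 ± 1.52, 17.1 ± 1.33 and 17.2 ± 0.863.

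Genes that share the work of the ribosome were tested in the same fit, in which 3.8%, 0.165% and 2.14% of all tested genes were called in dKO versus WT, tKO versus WT and tKO versus dKO. At these shares a list of this length holds few or no called genes, so a count of 0 is near the background. Of 20 tested genes for translation factors and other mRNAs with a terminal oligopyrimidine tract, 0 were called in any comparison, with medians of 0.07 in dKO versus WT, 0.02 in tKO versus WT and -0.07 in tKO versus dKO. Nap1l1, a histone chaperone, had 15.8 ± 1.79 FPKM in WT and 23.9 ± 3.88 in dKO (limma adjusted p 0.1004). Of 27 ribosome biogenesis genes 0 were called (medians 0.10, -0.02 and -0.06). Nop58, a core protein of box C/D small nucleolar particles, had 3.81 ± 0.611 FPKM in WT and 6.03 ± 1.39 in dKO (adjusted p 0.127).

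Of 18 genes that control ribosome synthesis 0 were called, against the same background shares (medians 0.02, 0.11 and 0.03). Myc, the growth regulator that activates ribosomal genes, had 2.39 ± 0.378 FPKM for WT, 3.52 ± 0.750 for dKO and 4.04 ± 1.39 for tKO (limma adjusted p 0.356 for dKO versus WT and 0.338 for tKO versus WT). Trp53, which is stabilised when free ribosomal proteins bind Mdm2, had 17.5 ± 1.94, 24.0 ± 2.73 and 22.8 ± 1.11 FPKM (adjusted p 0.0838 and 0.248). Of 76 mitochondrial ribosomal protein genes, which serve the separate ribosomes of mitochondria, 0 were called, against background shares of 3.8%, 0.165% and 2.14% (medians -0.04, -0.02 and 0.03).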

How the data were processed

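Poly(A)-selected RNA of 9 libraries was analysed. Per the file headers, the deposited values are FPKM per transcript event (first exon, last exon, skipped exon, retained intron), with 1 file per library and no row for values of 0. bcl2fastq 2.17.1.14 and DESeq are listed in the submitters' processing notes without a role. Which aligner and which build were used is not given in the sources used here. Of 36623 first-exon events 81.5% ended at a splice site of GENCODE M21 (GRCm38), as did 82.4% of 21612 last-exon events. Events were placed in genes by position, and by the gene named in the files within 5000 bases where no splice site matched. Events under a small RNA were given to its host gene. The gene value is the sum of first-exon FPKM, or of last-exon FPKM where larger over the 9 libraries (60 members by first and 23 by last exons). Library sums were 245102 to 265812 FPKM. The files give no counts, so depth is unknown.

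Tests covered the 12090 genes that reached 1 FPKM in 3 or more libraries (80 of them members; Rpl6l, Rpl39l and Rps3a2 did not pass). The log2(FPKM + 1) values of all 9 libraries entered 1 limma model (limma 3.58.1, R 4.3.3) whose prior variance followed the mean, Benjamini-Hochberg adjustment ran over all tested genes, and an adjusted p under 0.05 made a call. This pseudocount understates differences of low genes. The fit was tested on simulated data. Python 3.11.15 with pandas 2.3.3, numpy 2.4.6 and matplotlib 3.10.9 did the rest. Members, gene lists and tests were chosen with earlier results of these data known. The rule for named genes took called members, the 5 highest and 5 lowest, members at 0 in some libraries, the 4 largest differences each way in each comparison and the paralogs; some of these are given by range, and other genes are illustrations. Start sequences come from RefSeq on GRCm38.p6. Alternatives were other pseudocounts, filters, exon choices and scalings, no trend, only the groups compared, a replicate block and leaving out each library; 2 restricted member sets were added after seeing the data. The values of a few single genes are not reported here.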

Additional observations from a re-analysis of the deposited data

How the results depend on the processing

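The median log2 difference of the tested members stayed between -0.01 and 0.05 in dKO versus WT, -0.07 and 0.07 in tKO versus WT and -0.07 and 0.03 in tKO versus dKO over all settings, its highest value in tKO versus WT being 0.066 with every library scaled to the same sum. Calls of members were few and unstable. In dKO versus WT, 1 member (Rpl3l, lower) was called with only the 2 groups compared. In tKO versus WT the count was 2 with last exons for every gene (Rplp0 and Rps25), and 0 with median-of-ratios scaling or only the 2 groups compared. The Rps25 call rests on low values, since its last exons summed to 8.86 FPKM over the 9 libraries and its first exons to 474 FPKM. In tKO versus dKO the count of called members was 0 with no filter, median-of-ratios scaling, no trend or only the 2 groups compared. It was 1 (Rplp0) with first exons for every gene, and 1 among members with constant leading exons and 1 among members listed under their own ID, both sets chosen after seeing the data. Fits that left out 1 library called 0 to 1, 0 to 3 and 0 to 2 members in dKO versus WT, tKO versus WT and tKO versus dKO, and 105 to 452, 7 to 153 and 94 to 333 of all tested genes. Medians in these fits ran from -0.01 to 0.04, from -0.06 to 0.01 and from -0.07 to 0.01. The 153 arose without tKO replicate 1. Without filter, 31 genes were called in tKO versus WT, and with only the 2 groups compared 13 in tKO versus WT and 165 in tKO versus dKO. Deviations from the group means correlated at -0.109 to 0.00821 between same-numbered libraries and at -0.0850 to 0.1165 between others. As the deviations within a group of 3 sum to 0, this check cannot exclude pairing. With a replicate block 234, 5 and 148 genes were called, and 1 member in each tKO comparison, Rps13, while Rplp0 lost its calls (adjusted p 0.139 against WT and 0.0999 against dKO). The share of summed FPKM was 4.41%, 4.60% and 4.73% by first exons and 4.09%, 4.27% and 4.48% by last exons in WT, dKO and tKO, and by last exons WT and dKO did not overlap. Signs reversed for Rpl41 in tKO versus dKO with values of 0 as missing (-0.64), for Rpl30 in tKO versus dKO with first exons (0.16), and among fits without 1 library for Rpl17 in dKO versus WT (-0.30 without WT replicate 3 and -0.16 without dKO replicate 3, up to 1.78 without dKO replicate 2), Rps13 in dKO versus WT (-0.044 without WT replicate 3, up to 0.22), Rps27a in tKO versus WT (0.032 without tKO replicate 3, down to -1.26) and Rpl30 in tKO versus dKO (0.032 without dKO replicate 3, down to -0.69). The cause was not tested.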

Other observations

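Of 300 annotated ribosomal protein pseudogenes with -ps in the symbol, 4 had a value. Rpl30-ps10 had 6.99 FPKM in tKO replicate 2 and was listed at 0 in the other 8 libraries, Rpl31-ps15 had 0.888 FPKM in tKO replicate 1 only, Rps18-ps2 had at most 0.481 FPKM and Rpl29-ps2 at most 0.284 FPKM. Fau encodes a ubiquitin-like part fused to a small subunit protein and falls outside the symbol rule. It had 277 ± 28.1 FPKM for WT, 267 ± 15.04 for dKO and 281 ± 14.9 for tKO (SD, n = 3).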
